A study of Rattus norvegicus with 12 samples.

Results

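The genes described here are 6 genes of electrical conduction in the heart, the sodium channel genes Scn4b, Scn3b and Scn7a and the gap junction connexin genes Gja1, Gja5 and Gja4. They were taken by name, with earlier results of these data known, from the 14217 genes that the array's probe sets name in the deposited values. Of the probe sets, 10 carried 1 of these names and no other. Of the 10 probe sets, 7 had a mean at or above the 40th percentile of the table, a log2 value of 4.01, and were tested, so that all 6 genes were tested with at least 1 probe set. Where a gene had several, the one of highest mean represents it and the others are given beside it.

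RNA was measured in left atrial appendage and left ventricular free wall of male Sprague-Dawley rats that weighed 225 to 275 g, with 1-colour Affymetrix arrays. The 4 groups are left atrium after sham operation, left atrium after shunt, left ventricle after sham operation and left ventricle after shunt, all taken at 28 days. The shunt joined the aorta to the vena cava, which returns arterial blood straight to the heart and loads it with volume. Each group had 3 arrays, and each array held a pool of 2 tissues, which the submitters call biological replicates. No rat strain or genotype differs between the groups, the age is not given, and no label says which atrial and ventricular pools share animals. The design asks how the volume load changed each chamber, whether the chambers responded differently, and how they differ without it.

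Voltage-gated sodium channels carry the inward current that starts the action potential of heart muscle. They are built of a pore-forming alpha subunit and smaller beta subunits, which are single-pass membrane proteins that change how the channel opens and closes and where it sits in the membrane. Connexins assemble into gap junctions, the channels between neighbouring cells through which the current passes on, mostly at the intercalated discs of heart muscle cells and also between cells of the vessel wall.

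All levels below are log2 values as deposited, and all differences and standard errors (SE) are on that log2 scale, where a difference of 1 is a doubling. Levels of different probe sets are not compared. The tests are limma fits over all 12 arrays, with p-values adjusted by Benjamini-Hochberg over the 18619 probe sets tested and a threshold of 0.05. Arrays of the same group correlated at 0.983 to 0.996 across probe sets. The labelled chambers carried their markers: in sham rats 8 of 8 measured atrial myocyte markers were higher and 8 of 8 ventricular markers lower in the atrial arrays. Atrial shunt array 3 had the highest root mean square deviation from its group mean, 0.200, against 0.148 and 0.130 on the other atrial shunt arrays, 0.163 on ventricular shunt array 2 and 0.0913 to 0.110 on the atrial sham arrays, and results that change without it are given both ways. The tissue is a mixture of cells, so fewer cells of a type and less RNA per cell cannot be told apart.

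In the left atrium 2 of the 6 genes passed the test after the shunt. Scn4b, the beta4 subunit of the sodium channel, fell to less than the sham level on all 3 arrays, and Gja4, a connexin of arterial endothelium, rose. Over all probe sets 1.31% passed in this comparison. In the left ventricle 0 of the 6 passed with limma, where 0.107% of all probe sets did. An unadjusted p under 0.05 was found for 4 of the 6 in the atrium and 0 of the 6 in the ventricle. Over the 18619 probe sets tested it was found for 2839 in the atrium and 2730 in the ventricle. Between the chambers the 6 genes differed more: in sham rats 4 passed, 1 higher and 3 lower in the atrium, against 47.2% of all probe sets, and after the shunt 4 passed, 2 higher and 2 lower, against 41.9%. The arrays of atrium and ventricle did not overlap for 4 of the 6 in sham rats, against 61.2% of all probe sets, and for 5 of the 6 after the shunt, against 49.3%. Shunt and sham arrays did not overlap for 4 of the 6 in the atrium, against 20.7%, and for 2 of the 6 in the ventricle, against 20.8%. The genes were chosen with earlier results of these data known, so these counts beside all probe sets are descriptions only.

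**Figure D1:**
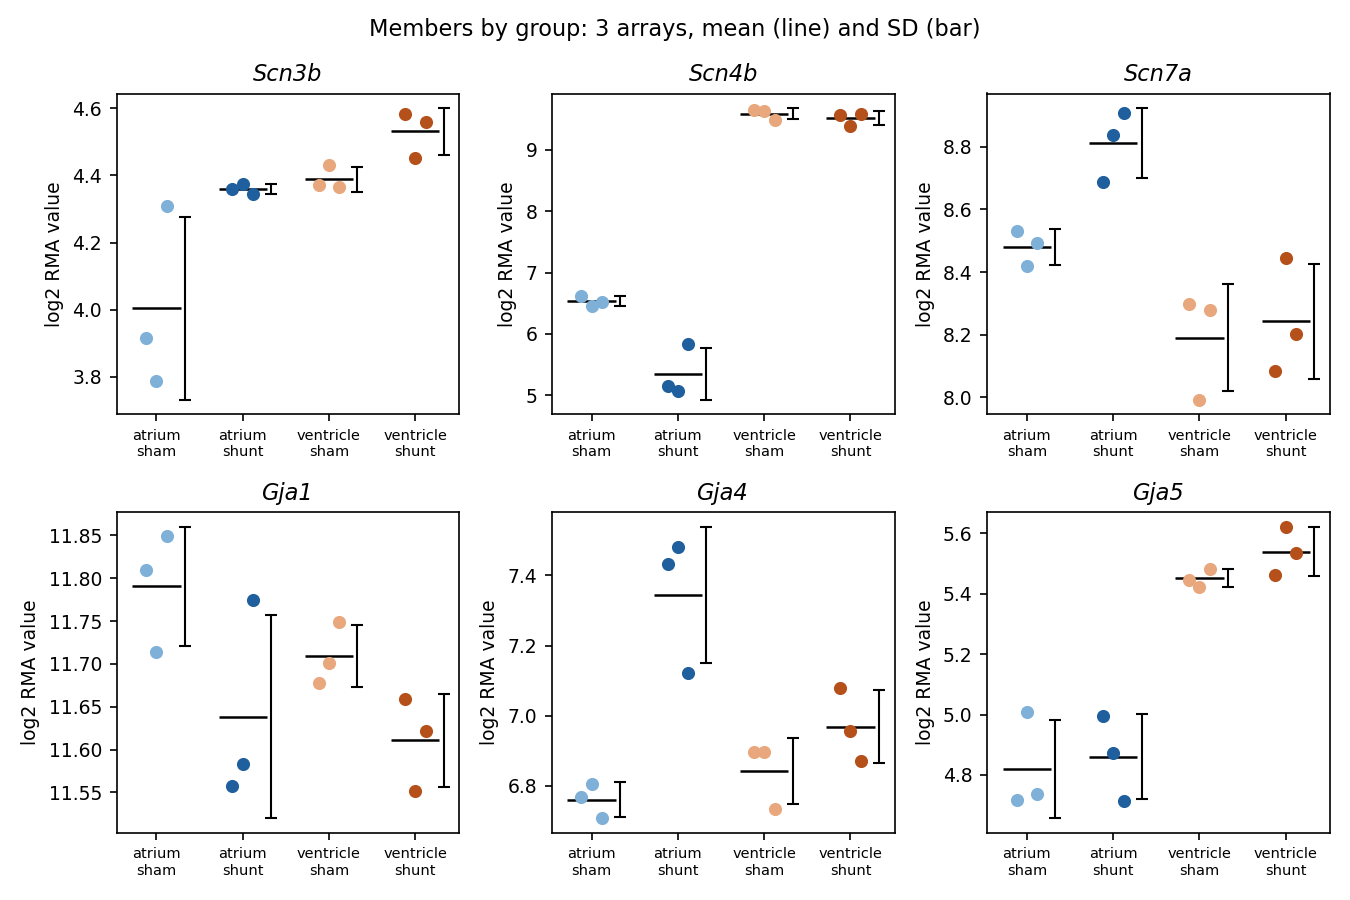
Log2 level of the representative probe set of each of the 6 genes in the 4 groups, with 1 point per array, a line at the group mean and a bar of 1 SD over 3 arrays; each panel has its own vertical axis, so heights are not comparable between panels. Scn4b lies near 9.6 in sham ventricle, 6.53 in sham atrium and 5.35 in atrium after the shunt, while Gja1 stays between 11.55 and 11.85 on all 12 arrays.

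Scn4b encodes the beta4 subunit, which in neurons is known for its part in the resurgent sodium current. Its probe set 1373188_at read 9.65, 9.62 and 9.49 on the sham ventricular arrays and 9.57, 9.38 and 9.59 on the ventricular arrays after the shunt. The sham atrial arrays read 6.62, 6.45 and 6.52. After the shunt the atrial arrays read 5.15, 5.07 and 5.83, all below the lowest sham atrial value. The order of the group means was therefore sham ventricle (9.59), ventricle after shunt (9.51), sham atrium (6.53) and atrium after shunt (5.35). The ventricular groups overlapped and every other pair of neighbours in this order was separate.

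The atrial fall of Scn4b came to 1.18 (SE 0.16, n = 3 arrays per group, limma adjusted p = 0.00563), a level 2.27-fold lower, with a 95% interval of -1.53 to -0.83. It stood 35th by p among the probe sets tested. In the ventricle the difference was -0.08 ± 0.16 (adjusted p = 0.866), with an interval of -0.43 to 0.28. The atrial effect was more negative than the ventricular one by 1.10 (SE 0.23, interval -1.60 to -0.61), but this difference did not pass (limma adjusted p = 0.257). No probe set at all passed that comparison, in which 0% of all probe sets were called and 1229 had an unadjusted p under 0.05, Scn4b and Gja4 among them. Over both chambers on average Scn4b fell by 0.63 (SE 0.11, adjusted p = 0.0144), in a comparison where 4.8% of all probe sets passed.

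Atrial shunt array 3 was the nearest to sham. Its deviation from the sham atrial mean was -0.70, against -1.38 and -1.46 on the other atrial shunt arrays. Without it the atrial fall was 1.42, and the difference between the chambers was -1.35 and passed (limma adjusted p = 0.00355), as 19 probe sets then did. The atrial call held in all 12 fits that left out an array, with adjusted p from 4.6e-05 to 0.032. It was lost when only the 6 atrial arrays were fitted (adjusted p = 0.0841), where 43 probe sets passed in place of 243, and when the test was run against a minimum fold of 1.5 (adjusted p = 1), where 3 did. Over the alternatives other than leaving out an array the adjusted p lay between 0.000148 and 1.

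Between the chambers Scn4b was lower in the atrium by 3.06 in sham rats (limma, SE 0.16, adjusted p = 4.3e-08) and by 4.16 after the shunt (SE 0.16, adjusted p = 3.39e-09). These are levels 8.32-fold and 17.9-fold lower. Both comparisons held under every alternative and every left-out array.

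The promoter of Scn4b is shown because this gene had the widest range over the 4 groups of the 6, and it stands beside those of Gja4 and Gja5, which are described further on. The sequences are those of RefSeq for rat assembly GRCr8, from 250 bases before to 50 bases after the annotated start, read 5′ to 3′ on the gene's strand. Scn4b lies at chr8:54343623-54343922 on the plus strand with 70% G and C. The promoter of Gja4 is at chr5:144920275-144920574 on the minus strand with 65.3% G and C, and that of Gja5 at chr2:187290977-187291276 on the plus strand with 55.3%. Capitals mark matches to the 4 motifs searched on both strands.
Scn4b: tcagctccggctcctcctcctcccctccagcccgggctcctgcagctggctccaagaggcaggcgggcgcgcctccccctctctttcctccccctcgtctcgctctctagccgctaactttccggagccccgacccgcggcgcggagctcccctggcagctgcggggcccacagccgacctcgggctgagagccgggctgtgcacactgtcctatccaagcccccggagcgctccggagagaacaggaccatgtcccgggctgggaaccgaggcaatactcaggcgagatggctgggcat
Gja4: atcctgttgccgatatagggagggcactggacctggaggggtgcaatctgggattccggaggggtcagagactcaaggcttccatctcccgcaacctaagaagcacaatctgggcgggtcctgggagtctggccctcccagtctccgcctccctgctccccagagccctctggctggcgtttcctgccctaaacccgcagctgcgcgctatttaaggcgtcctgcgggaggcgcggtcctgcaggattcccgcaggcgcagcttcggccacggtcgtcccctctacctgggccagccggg
Gja5: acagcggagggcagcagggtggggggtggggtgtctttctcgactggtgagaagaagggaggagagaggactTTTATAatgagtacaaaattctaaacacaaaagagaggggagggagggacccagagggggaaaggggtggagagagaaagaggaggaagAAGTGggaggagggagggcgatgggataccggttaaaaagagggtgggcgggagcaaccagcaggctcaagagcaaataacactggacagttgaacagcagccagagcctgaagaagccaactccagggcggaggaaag
The core bound by NK homeobox factors was searched as AAGTG, which is present in 46.2% of the 33469 promoters of this length. A core of T-box factors was searched as GGTGTG, present in 17.9% of them. The core of the zinc finger factors of early heart development was searched as GATAA, present in 26.5%. The TATA box was searched as TATAAA, present in 14.2%. No match overlapped another in the windows shown. In the Gja5 window AAGTG begins at base -89 from the start, and TATAAA lies on the opposite strand at -178, printed as TTTATA. The windows of Scn4b and Gja4 hold no match to any of the 4. Of the other genes, Scn7a has GATAA on the opposite strand at -112, and Gja1 has it there at -171, with AAGTG on the opposite strand at 13. Scn3b had no entry, so 5 of the 6 genes matched. These matches are descriptions of letters only.

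Scn3b encodes the beta3 subunit. Its probe set 1383435_at lay close to the filter: 3.92, 3.79 and 4.31 on the sham atrial arrays, 4.36, 4.37 and 4.34 on the atrial arrays after the shunt, 4.37, 4.43 and 4.36 in sham ventricle and 4.58, 4.45 and 4.56 in ventricle after the shunt. Sham atrium held the lowest arrays and ventricle after the shunt the highest. In neither chamber did shunt and sham arrays overlap. The difference after the shunt was 0.36 ± 0.11 in the atrium (limma adjusted p = 0.144) and 0.14 ± 0.11 in the ventricle (adjusted p = 0.574), and neither passed. One sham atrial array, replicate 3, weighed on this: without it the atrial difference was 0.51 and passed (adjusted p = 0.0222), while over the 12 left-out arrays the adjusted p reached 0.379.

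In sham rats Scn3b was lower in the atrium by 0.38 (SE 0.11, limma adjusted p = 0.0123), and without sham atrial array 2 by 0.28 (adjusted p = 0.0552). After the shunt the difference of -0.17 ± 0.11 did not pass (adjusted p = 0.228). A second probe set of Scn3b, 1370850_at, was below the filter, with 3.31 to 3.51 in sham atrium and 3.57 to 3.78 in sham ventricle. With no filter it too was lower in the sham atrium, by 0.27 (adjusted p = 0.0357).

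Scn7a encodes an atypical sodium channel protein that senses extracellular sodium and is known from glia and Schwann cells. Probe set 1370973_at read 8.53, 8.42 and 8.49 in sham atrium and 8.69, 8.84 and 8.91 in atrium after the shunt. The ventricular values were 8.30, 7.99 and 8.28 after sham operation and 8.08, 8.44 and 8.20 after the shunt. All atrial shunt arrays were above all sham atrial arrays, while the ventricular groups overlapped. The atrial difference of 0.33 ± 0.11 did not pass (limma adjusted p = 0.166), nor did the ventricular one of 0.05 ± 0.11 (adjusted p = 0.859). Their difference was 0.28 ± 0.15 (adjusted p = 0.824).

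After the shunt Scn7a was higher in the atrium than in the ventricle by 0.57 ± 0.11 (limma adjusted p = 0.00118), 1.48-fold, in all 12 fits that left out an array. In sham rats it was higher by 0.29 ± 0.11 (adjusted p = 0.043), and this call was close to the threshold. It was lost in 6 of the 12 fits that left out an array, which gave 0.19 to 0.34 with adjusted p from 0.0247 to 0.17. These were the fits without atrial shunt array 2, any of the 3 sham atrial arrays, ventricular shunt array 3 or sham ventricular array 2. It was also lost with no filter (adjusted p = 0.0533), after further quantile normalization (0.0948) and after cyclic loess (0.0897). A replicate block over all groups and a minimum fold of 1.5 lost it as well. The adjusted p ranged from 0.0184 to 1 over the alternatives other than leaving out an array.

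Markers of cells other than muscle differed between the chambers in both directions. Of 7 measured nerve and Schwann cell markers, 3 were higher and 0 lower in the sham atrium, a share no larger than the 47.2% of all probe sets. Mbp, a protein of myelin, had a mean of 8.07 there against 5.07 in sham ventricle and carried most of the list's mean difference of 0.57, while the median difference was 0.17. The list's mean level per array was 6.32 to 6.41 in sham atrium, 6.48 to 6.76 in atrium after the shunt, 5.76 to 5.82 in sham ventricle and 5.80 to 5.89 in ventricle after the shunt. Of 9 fibroblast markers 6 were higher and 0 lower in the sham atrium, with a list mean of 8.86 to 8.87 there and 8.26 to 8.38 in sham ventricle. Other lists lay on the opposite side, with 1 higher and 6 lower of 10 endothelial markers, 0 higher and 6 lower of 7 arterial endothelial markers and 0 higher and 5 lower of 6 pericyte markers. The part of these cells in the chamber difference of Scn7a was not tested.

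**Figure D2:**
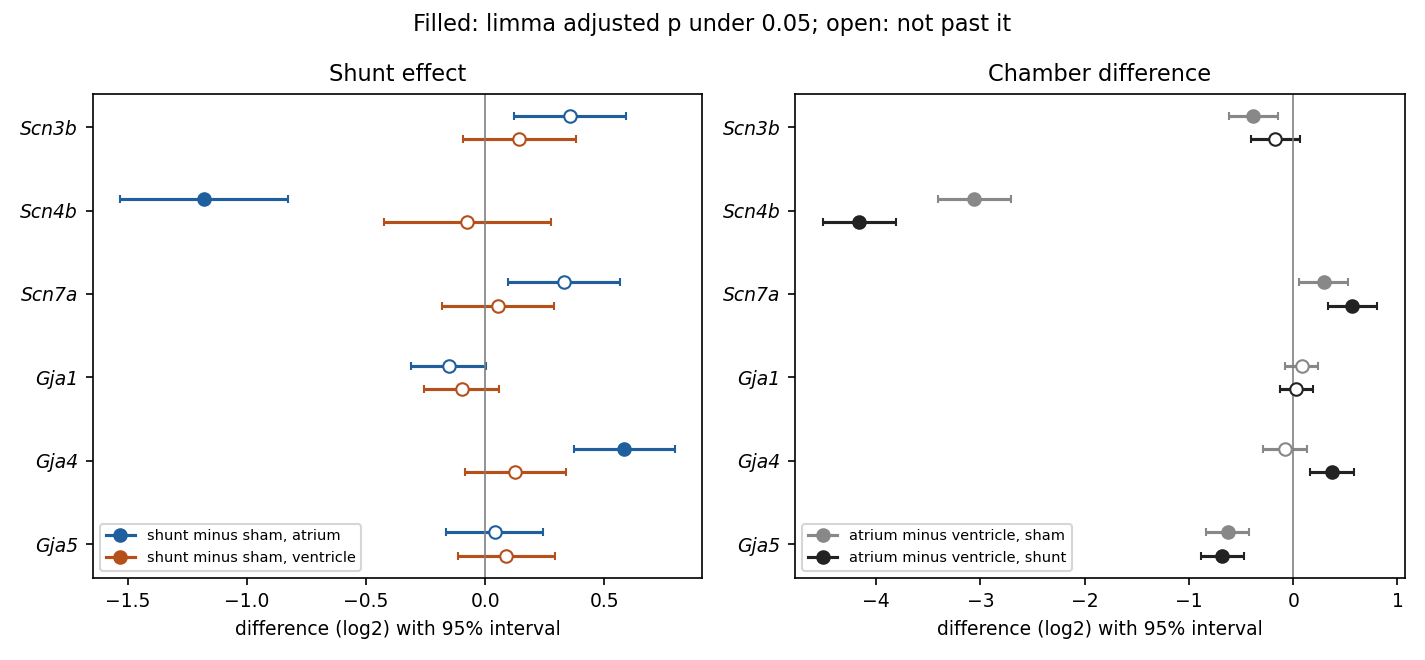
Differences of the 6 genes on the log2 scale with 95% intervals from the limma fit, the effect of the shunt in each chamber on the left and the atrial minus ventricular difference after each operation on the right; filled symbols passed the adjusted threshold. On the left only the atrial values of Scn4b (-1.18) and Gja4 (0.58) are filled, and on the right Scn4b lies at -3.06 and -4.16, far from the other 5 genes.

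Gja1 encodes connexin Cx43, the most widespread gap junction protein of working heart muscle. Its brightest probe set, 1372002_at, read 11.81, 11.71 and 11.85 in sham atrium and 11.56, 11.58 and 11.77 in atrium after the shunt. In the ventricle it read 11.68, 11.70 and 11.75 after sham operation and 11.66, 11.55 and 11.62 after the shunt. Neighbouring groups in the order of the means all overlapped, although the ventricular shunt arrays all lay just below the sham ones. The shunt differences were -0.15 ± 0.07 in the atrium (limma adjusted p = 0.346) and -0.10 ± 0.07 in the ventricle (adjusted p = 0.556). Their intervals of -0.31 to 0.00 and -0.26 to 0.06 leave room for a small decrease. Averaged over both chambers the difference was -0.13 (SE 0.05, interval -0.24 to -0.01), which did not pass (limma adjusted p = 0.175). The atrium and ventricle of sham rats differed by 0.08 ± 0.07 (adjusted p = 0.373).

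The probe sets of Gja1 disagreed on the chambers. The second tested one, 1369640_at, read 9.13, 8.63 and 8.84 in sham atrium against 9.33, 9.27 and 9.24 in sham ventricle, and after the shunt 8.60, 8.66 and 8.61 against 9.02, 8.90 and 9.23. By this probe set Gja1 was lower in the atrium by 0.41 in sham rats (SE 0.11, limma adjusted p = 0.0118) and by 0.43 after the shunt (SE 0.11, adjusted p = 0.0106), with no overlap of the arrays. Its shunt differences of -0.25 ± 0.11 in the atrium (adjusted p = 0.339) and -0.23 ± 0.11 in the ventricle (adjusted p = 0.377) did not pass. Nor did their average of -0.24 (SE 0.08, interval -0.42 to -0.06, limma adjusted p = 0.116). The third, 1369639_at, was below the filter, at 2.67 to 2.97 on all arrays. A chamber difference of Gja1 is therefore not given a direction here.

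Gja5 encodes connexin Cx40, which is known from atrial muscle, the ventricular conduction system and arterial endothelium. Probe set 1368473_at read 4.72, 5.01 and 4.74 in sham atrium and 4.99, 4.87 and 4.71 in atrium after the shunt. The sham ventricular arrays read 5.45, 5.42 and 5.48, and those after the shunt 5.46, 5.62 and 5.53. Every atrial array was below every ventricular array, whatever the operation. Gja5 was lower in the atrium by 0.63 in sham rats (SE 0.09, limma adjusted p = 0.00018) and by 0.68 after the shunt (SE 0.09, adjusted p = 0.000107), levels 1.55-fold and 1.60-fold lower. Both calls held in all 12 fits that left out an array, but were lost with a minimum fold of 1.5. The atrial values lay close to the array medians of 4.54 to 4.59. With a filter at the 60th percentile this probe set was not tested.

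The shunt left no difference in Gja5 that passed: 0.04 ± 0.09 in the atrium (interval -0.16 to 0.24, limma adjusted p = 0.883) and 0.09 ± 0.09 in the ventricle (interval -0.11 to 0.29, adjusted p = 0.702). A second probe set, 1387207_at, was below the filter. It read 3.20, 3.28 and 3.06 in sham atrium and 3.58, 3.78 and 3.79 in sham ventricle, so that it was lower in the sham atrium too, by 0.54 with no filter (SE 0.08, adjusted p = 0.000296). After the shunt its chamber difference of -0.18 did not pass (adjusted p = 0.128).

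The chamber difference of Gja5 lay beside those of arterial endothelial markers. Of 7 such markers measured, with the connexins left out, 6 were lower and 0 higher in the sham atrium, by 0.62 in the mean. In this comparison 47.2% of all probe sets passed in either direction. The brightest of the markers, Cxcl12, a chemokine, was lower by 1.12, and the dimmest, Notch4, a receptor of arterial identity, by 0.44. The list's mean level per array was 6.13 to 6.28 in sham atrium, 6.36 to 6.49 in atrium after the shunt, 6.81 to 6.86 in sham ventricle and 6.87 to 7.06 in ventricle after the shunt. Gja4, left out of the arterial list, differed by -0.08 ± 0.10 between the chambers of sham rats (limma adjusted p = 0.511). After the shunt it was higher in the atrium by 0.38 ± 0.10 (adjusted p = 0.00821). Of 5 measured markers of the conduction system, 1 was higher and 3 lower in the sham atrium, again beside 47.2% of all probe sets. The part of either cell type in the level of Gja5 was not tested.

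Gja4 encodes a connexin of arterial endothelial cells, where Gja5 is found as well. Probe set 1370023_at read 6.77, 6.81 and 6.71 in sham atrium and 7.43, 7.48 and 7.12 in atrium after the shunt, with no overlap. In the ventricle it read 6.90, 6.90 and 6.73 after sham operation and 7.08, 6.96 and 6.87 after the shunt. In the order of the group means, sham atrium (6.76), sham ventricle (6.84) and ventricle after the shunt (6.97) each overlapped with the next in their arrays, and only atrium after the shunt, at 7.34, stood clear of its neighbour.

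Gja4 rose in the atrium by 0.58 ± 0.10 (limma adjusted p = 0.0158), with an interval of 0.37 to 0.80. The ventricular difference was 0.13 ± 0.10 (adjusted p = 0.583), with an interval of -0.09 to 0.34. The effects differed by 0.46 ± 0.14 (interval 0.16 to 0.76), which did not pass (limma adjusted p = 0.511). Averaged over both chambers Gja4 rose by 0.35 ± 0.07 (adjusted p = 0.0179). In sham rats the chambers differed by -0.08 ± 0.10 (adjusted p = 0.511), and after the shunt Gja4 was higher in the atrium by 0.38 ± 0.10 (adjusted p = 0.00821).

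The atrial call of Gja4 was less firm than that of Scn4b. It held in 8 of 12 fits that left out an array, with 0.52 to 0.69 and adjusted p from 0.0021 to 0.0811. It was lost without atrial shunt array 1 (0.54, limma adjusted p = 0.0639), atrial shunt array 2 (0.52, 0.0629), sham atrial array 2 (0.61, 0.0561) or sham atrial array 3 (0.56, 0.0811). It was also lost with only the atrial arrays fitted (adjusted p = 0.104) or with a minimum fold of 1.5 (adjusted p = 1).

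Values that moved with the 2 called genes are set out in the plot of the atrial and ventricular shunt arrays. The mean level of 7 arterial endothelial markers deviated from the chamber's sham mean by 0.25, 0.27 and 0.14 on the atrial shunt arrays and by 0.03, 0.22 and 0.11 on the ventricular ones, and Gja4 by 0.67, 0.72 and 0.36 and by 0.24, 0.11 and 0.03. All 7 markers were nominally higher in the atrium after the shunt and 0 passed. The 10 markers of endothelium in general deviated by 0.13, 0.04 and -0.05 on the atrial shunt arrays, with 0 called. The part of arterial cells in the rise of Gja4 was not tested.

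**Figure D3:**
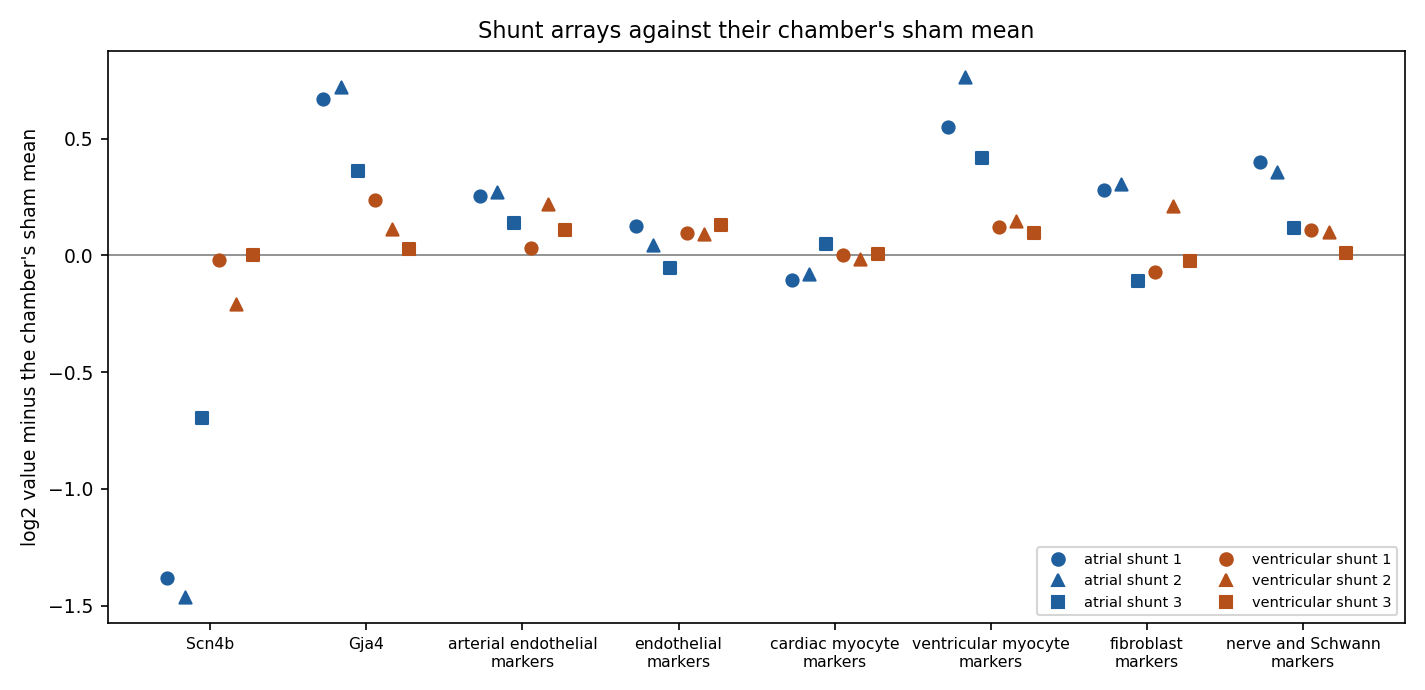
Each shunt array's deviation from the sham mean of its chamber, on the log2 scale, with atrial and ventricular arrays apart. Scn4b and Gja4 are drawn beside the means of some of the marker lists. These are arterial endothelium, endothelium in general, cardiac myocytes, ventricular myocytes, fibroblasts, and nerve and Schwann cells. Scn4b deviates by -1.38, -1.46 and -0.70 on the atrial arrays while the cardiac myocyte list stays between -0.10 and 0.05.

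Beside the atrial fall of Scn4b, the 9 measured markers of cardiac myocytes deviated by -0.10, -0.08 and 0.05 on the atrial shunt arrays, and 0 of them passed. Over all probe sets 1.31% passed in this atrial comparison, in either direction. Of 8 ventricular myocyte markers 3 passed as higher in the atrium after the shunt. Of the 8, 6 were nominally higher, and Irx4 was not, with 3.07 after the shunt against 3.39 in sham atrium. The list deviated by 0.55, 0.77 and 0.42, although Scn4b itself was far higher in ventricle than in atrium. Of 9 fibroblast markers 2 were higher, with deviations of 0.28, 0.30 and -0.11. Of 7 nerve and Schwann cell markers 2 were higher, with deviations of 0.40, 0.36 and 0.12. Of 6 mesothelial markers 1 was lower, with deviations of -0.0025, 0.03 and -0.51, and of 3 blood markers 0 passed, with deviations of 0.61, 0.46 and -0.17. Of 6 pericyte markers 0 passed, with deviations of 0.31, 0.27 and -0.13, and of 7 macrophage markers 0 passed, with 0.31, 0.32 and -0.27. The part of these cells in the changes of Scn4b and Gja4 was not tested. The hexokinase control probe sets gave a 3′ minus 5′ difference, a measure of how complete the RNA copies are, of 0.799, 0.937 and 1.44 on the atrial shunt arrays against 1.01 to 1.10 on the sham atrial arrays, and the highest was array 3. With that difference as a term in the fit the atrial values were -1.18 for Scn4b (limma adjusted p = 0.000195) and 0.58 for Gja4 (adjusted p = 0.00564), within ranges of 0.000148 to 1 and 0.00115 to 1 over the alternatives.

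Over all 12 arrays Scn4b and Gja4 correlated at -0.51, and at -0.93 once each chamber's mean was taken from its 6 arrays. Scn4b and Gja5 correlated at 0.90 over the 12 arrays and at -0.41 within chambers, so that these genes shared the chamber difference and not the remaining variation. The arrays behind these values share chamber and operation, and the correlations are descriptions only.

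The other genes of each family were taken from lists of the alpha and beta subunits and of all connexins. Of the alpha subunits on this list, Scn1a and Scn10a were tested beside Scn7a. In sham rats these differed between the chambers by -0.20 ± 0.15 (limma adjusted p = 0.318) and 0.02 ± 0.06 (adjusted p = 0.8), and neither passed any of the 6 comparisons. Scn2b, the remaining beta subunit named on the array, had a mean of 3.93 and stayed below the filter.

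Among the connexins 11 of 20 were named and 6 tested, so 3 stand beside Gja1, Gja4 and Gja5. Gja3, best known from the lens, read 8.17, 8.29 and 8.03 in sham atrium and 7.63, 7.56 and 7.81 in atrium after the shunt, without overlap. Its atrial difference of -0.50 ± 0.11 just missed the threshold (limma adjusted p = 0.0604). In sham rats Gja3 was higher in the atrium than in the ventricle by 0.91 ± 0.11 (adjusted p = 5.36e-05), the opposite side to Gja5. Gjb1 was lower in the sham atrium by 0.29 (SE 0.07, adjusted p = 0.00483), and Gjc1, the connexin of nodal tissue, differed by 0.03 ± 0.10 (adjusted p = 0.813). Panx1, which forms channels of a related fold, was higher in the sham atrium by 1.25 ± 0.09 (adjusted p = 6.27e-07).

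Of 11 tested partners and modifiers of the sodium channel, 1 fell and 0 rose in the atrium after the shunt, with a median difference of -0.06 against -0.01 over all probe sets. That 1 was Fgf12, an intracellular factor that binds sodium channels. It read 8.93, 8.99 and 8.94 in sham atrium and 8.45, 8.50 and 8.67 after the shunt, and fell by 0.42 (SE 0.09, limma adjusted p = 0.0486). This call held in only 2 of 12 fits that left out an array, with adjusted p up to 0.171. In sham rats 5 of the 11 were higher in the atrium and 1 lower, a share near the 47.2% of all probe sets. Fgf12 was higher by 1.30 ± 0.09 (adjusted p = 3.96e-07), Nedd4l, a ubiquitin ligase that removes channels from the membrane, by 0.72 ± 0.10 (adjusted p = 8.8e-05) and Ank2, an anchoring protein, by 0.57 ± 0.09 (adjusted p = 0.000343). Rangrf, which helps bring the sodium channel to the membrane, was lower by 1.00 (SE 0.08, adjusted p = 1.72e-06).

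**Figure D4:**
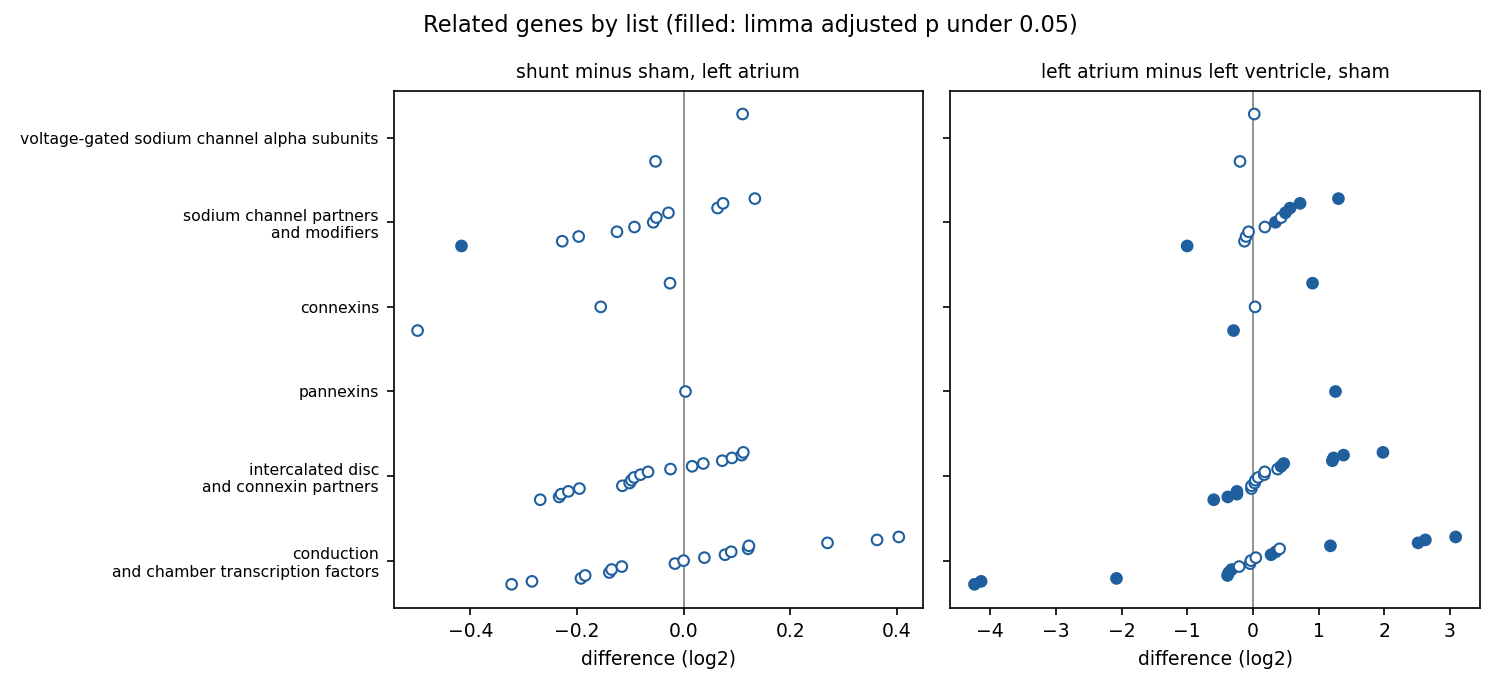
Log2 differences of the tested genes of each list, without the 6 genes. The effect of the shunt in the atrium is set beside the difference of the chambers in sham-operated rats, atrial minus ventricular. Filled points passed the adjusted threshold. The list of beta subunits holds no other tested gene and is not drawn. After the shunt the only filled point is Fgf12 (-0.42), while many points are filled in the comparison of the chambers.

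Of 18 tested genes of the intercalated disc, where connexins sit, 0 passed after the shunt in either chamber with limma. Over the 18619 probe sets tested, 2839 had an unadjusted p under 0.05 in the atrium and 2730 in the ventricle. Of the 18 genes of the disc, 3 had one in the atrium and 2 in the ventricle. Between the chambers of sham rats 6 were higher in the atrium and 4 lower, with a median of 0.13 against 0.00 over all probe sets, and this share too was near the 47.2% called over all. Those of smallest p were Dsc2 and Dsg2, cadherins of the desmosome, higher by 1.98 ± 0.09 (limma adjusted p = 9.69e-09) and 1.23 ± 0.07 (adjusted p = 6.4e-08), Pkp4, an armadillo protein of junctions, higher by 1.38 ± 0.07 (adjusted p = 2.7e-08), and Ctnna1, alpha-catenin, higher by 0.43 ± 0.06 (adjusted p = 7.27e-05).

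Transcription factors of the conduction system and the chambers gave 0 calls of 17 after the shunt in either chamber with limma. An unadjusted p under 0.05 was reached by 2839 of the 18619 probe sets tested in the atrium and by 2730 in the ventricle. Of the 17 factors, 5 reached it in the atrium and 3 in the ventricle. In sham rats 6 were higher in the atrium and 6 lower, where 47.2% of all probe sets passed. The lower ones included Irx3, a factor of the ventricular conduction system (by 4.24, SE 0.14, limma adjusted p = 1.29e-09), Irx4, a factor of ventricular muscle (by 4.14, SE 0.10, adjusted p = 8.22e-11), and Hey2, another ventricular factor (by 2.08, SE 0.09, adjusted p = 9.64e-09). Nr2f2, a factor of atrial identity, was higher by 2.51 ± 0.08 (adjusted p = 5.57e-10).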

How the data were processed

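Expression was measured on 12 arrays, 3 per group. The values were deposited by the authors on a log2 scale, as RMA values per the submitters' processing notes. The RMA version, and which arrays were normalized together, are not given in the sources used here. The array medians lay between 4.54 and 4.59, and the number of arrays limits the precision.

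Of 31099 probe sets, 57 controls were left out. Symbols came from the platform annotation, updated by Entrez identifier to GRCr8 gene names (20758 of 20826 probe sets with 1 symbol matched; 436 had several and 9780 none). The filter left 18619 probe sets and 10604 named genes.

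The fits used limma 3.58.1 (R 4.3.3) with a mean for each group, no block, 8 residual degrees of freedom and a prior of 3.68. P-values are two-sided. There were 6 contrasts: the shunt effect in either chamber, the average and the difference of those effects, and the chamber difference after either operation. The fit was run on simulated data with independent normal noise, the same spread in all groups and known shifts in the atrial shunt group only. Such data cannot speak to shared animals, to a deviating array or to the chamber comparisons. Named genes were the 6 genes, and of each list up to 4 that passed in any contrast by smallest p, filled to 2. Likeness is Pearson's r over the 12 arrays, as they are and with chamber means taken away, and the 3 genes of highest r are named. The genes and lists were chosen with earlier results of these data known. The alternatives were other filters, normalizations, weights, priors, blocks, a minimum fold, averaged probe sets, a hexokinase term, and leaving out each array.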

Additional observations from a re-analysis of the deposited data

Results flagged for a closer look

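The second probe set of Gja5, 1387207_at, read 3.32, 3.41 and 3.31 on the atrial arrays after the shunt, all above the sham atrial values of 3.20, 3.28 and 3.06. In the ventricle it read 3.57, 3.43 and 3.58 after the shunt, all below the sham mean of 3.72, from sham arrays at 3.58, 3.78 and 3.79. The atrial and ventricular shunt effects thus had opposite signs on every array and differed by 0.35. The difference was not tested among the probe sets that passed the filter, since this one was below it. With no filter limma gave it an adjusted p of 0.66. The brighter probe set of Gja5 differed by -0.05 ± 0.13 (adjusted p = 0.99).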

How the results depend on the processing

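Of 840 values of the 6 genes under alternatives, 794 kept their direction and side of the threshold, 28 lost the call, 4 gained it and 14 changed sign, all of the last among differences that had not passed. The count of called genes fell with a minimum fold of 1.5, to 0 in the atrium after the shunt, 0 averaged over both chambers, 1 between chambers in sham rats and 1 after the shunt. It fell to 0 in the atrium when only the groups compared were fitted, and to 2 of 4 tested between chambers in sham rats at the 60th percentile, where Scn3b and Gja5 were not tested. It rose to 1 for the difference of the shunt effects with array weights (Scn4b, -1.30, limma adjusted p = 0.0289). Leaving out arrays gave 1 to 2 in the atrium (1 without atrial shunt 1, atrial shunt 2 or sham atrial 2), 2 to 4 between chambers in sham rats (2 without sham atrial 2), and 0 to 1 for the difference (1 without atrial shunt 3).

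Gja4 averaged over both chambers lost its call without sham atrial 3 (0.34, limma adjusted p = 0.0527), and Scn3b averaged passed without it (0.33, adjusted p = 0.0124). Gja1 between chambers changed sign with the mean of its probe sets, to -0.16 in sham rats and -0.20 after the shunt, and after the shunt to -0.0233 with array weights and over -0.0403 to 0.0683 without single arrays. Gja5 ranged over -0.0267 to 0.134 for the atrial shunt effect and -0.115 to 0.0454 for the difference without single arrays, and the difference was 0.0095 with array weights. Scn7a in the ventricle was -0.0032 with array weights and ranged over -0.0478 to 0.133 without single arrays. The cause was not tested.

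The minimum fold left 3 probe sets called in the atrium, 0 in the ventricle and 0 averaged, 1112 between chambers in sham rats and 1029 after the shunt. Array weights gave 910 and 160 for the shunt in atrium and ventricle. Replicate numbers are shared between groups, but no label says that they pair samples, and the main fit took no pairs. Of 18 same-numbered pairs, 4 correlated over 0.1 in their deviations (-0.24 to 0.45). All 4 were among the 6 atrial and ventricular pairs of the same operation. Only these 6 could share animals, and whether they did is not known. With the replicate number as a random block within each operation (correlation 0.15), 253 probe sets passed in the atrium and 10 in the ventricle, and 2, 0, 2, 0, 4 and 4 of the 6 genes in the 6 comparisons. With a replicate block in the fit of all 12 arrays, 208 probe sets passed in the atrium and 15 in the ventricle, and of the 6 genes 2, 0, 2, 0, 3 and 4 passed in the 6 comparisons, Scn7a in sham rats being lost (adjusted p = 0.0602). The 3 arrays per group limit the precision of the smaller differences.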

Other observations

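Genes whose level ran most like each of the 6 over the 12 arrays were listed by Pearson's r, as a description with no test, since these arrays share chamber and operation. For Scn4b they were Fabp3 (r = 0.997), a fatty acid binding protein of heart muscle, Slc38a3 (0.996), a glutamine transporter, and Tuba8 (0.995), a tubulin. With each chamber's mean taken away they were Slc38a3 (0.988), Slc22a3 (0.973), an organic cation transporter, and Rxrg (0.959), a retinoid receptor, so that Slc38a3 stood on both lists. For Gja4 they were Ltbp2 (0.938), a matrix protein that binds microfibrils, Fxyd5 (0.937), a regulator of the sodium pump, and Abhd18 (0.934), and within chambers LOC102553868 (0.963), Slc6a6 (0.943), the taurine transporter, and Fxyd5 (0.940).

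For Scn7a the closest was Fbln2, a matrix protein, in both forms (0.966 and 0.918), followed over the 12 arrays by Prdx6 (0.951) and Ccn2 (0.951). For Scn3b it was Nrros in both forms (0.944 and 0.925), followed by Casp9 (0.934 and 0.915). Gja5 ran most like Tmem108 (0.979), Dbt (0.977) and Gatc (0.977) over the 12 arrays and like Ptprc (0.932), the leukocyte antigen, within chambers. Gja1 ran most like Naxe (0.925) over the 12 arrays and like Znhit3 (0.971), Rbm20 (0.961), a splicing factor of heart muscle, and Mgll (0.959) within chambers.

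Among the chamber factors, Hopx and Nkx2-5 passed only as the average of both chambers among the shunt comparisons, where Hopx rose by 0.30 ± 0.08 (limma adjusted p = 0.0439) and Nkx2-5 fell by 0.19 (SE 0.05, adjusted p = 0.0441). Both were named after their values were seen.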
